A study of Mus musculus with 6 samples.

Results

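The secreted and membrane-bound metalloproteinases that cut the extracellular matrix and cell-surface proteins, and the tissue inhibitors that bind them, were described in bulk RNA-seq of mouse aortas. Members were chosen by symbol and biotype alone: every protein-coding gene of the deposited count table named Mmp, Adam or Adamts followed by a number, and Timp1 to Timp4. They numbered 80 of 56748 genes: 23 matrix metalloproteinases (MMPs), 34 ADAMs, 19 ADAMTSs and 4 TIMPs. The mice were 6 months old, lacked apolipoprotein E (Apoe -/-) and had been infused for 28 days with angiotensin II by osmotic minipump, a model of aortic disease. Both groups share the Apoe deficiency and the infusion: 3 mice were wild-type littermates (WT) and 3 were sST2-knockout littermates (sST2-KO), which lack soluble ST2, a secreted decoy receptor of the cytokine IL-33. The labels do not say how the knockout was made, and there is no group without angiotensin II. The series asks what soluble ST2 does to the progression of aortic disease.

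MMPs are zinc-dependent enzymes made as inactive precursors. As a family they can cleave collagens, elastin and most other matrix components, and their activity in the aortic wall is widely studied in aneurysm and atherosclerosis. ADAMs are mostly membrane proteins that shed the ectodomains of cytokines, growth factors and adhesion molecules, although several are restricted to the testis or have no active site. ADAMTSs are secreted enzymes with thrombospondin repeats that cleave proteoglycans such as versican and aggrecan or trim procollagens. TIMPs bind the active site of MMPs, and TIMP3, which stays in the matrix, also inhibits ADAM17 and several ADAMTSs. Activity of all these proteins is set largely by activation and inhibition after translation, so the values below are transcript levels only.

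Values of the 3 libraries of a group are given in the order of their replicate numbers. Levels are given in CPM, counts in 1000000 after scaling of library sizes, or in CPM per kilobase of the deposited gene length where genes are compared with each other. Total counts ran from 15615658 to 17988552 per library, so that 3 counts, the level that a count of 0 allows, correspond to 0.148 to 0.239 CPM (counting error only). Smooth muscle markers were present in every library, with summed levels of 3014 to 10505 CPM over 7 genes. Il1rl1, which encodes soluble and membrane ST2 and so checks the genotype only weakly, lay between 2.39 and 9.49 CPM with overlapping groups. Apoe, the gene that all groups are labelled as lacking, had 15.1 and 11.6 CPM for WT replicates 1 and 2, 507 CPM for WT replicate 3, and 172, 86.7 and 145 CPM for the sST2-KO libraries. The labels do not say which part of the gene is deleted, so these counts do not check the genotype. The library of sST2-KO replicate 2 held airway transcripts, with the club cell gene Scgb1a1 at 12598 CPM against at most 7.89 CPM elsewhere, and that of WT replicate 3 held liver transcripts, with the albumin gene Alb at 6205 CPM against at most 3.83 CPM elsewhere. The mitochondrial share of counts was 37.8% for WT replicate 2, 7.08% for sST2-KO replicate 2 and 18.4 to 23.7% for the other libraries. In bulk tissue, fewer cells of a type and less RNA per cell cannot be told apart.

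Of the 80 members, 65 had a count in some library and 50 passed the filter on low counts and were tested: 16 MMPs, 14 ADAMs, 16 ADAMTSs and 4 TIMPs. The 30 that were not tested include 20 ADAMs, and 12 of those 20 lie on chromosome 8, where arrays of testis ADAM genes sit. Of these 30, 15 had no count in any library, among them the collagenase genes Mmp1a and Mmp1b, the matrilysin gene Mmp7, the enamel protease gene Mmp20 and both Adam6 genes of the immunoglobulin heavy chain locus. Apart from Adam28, no untested member exceeded 1.28 CPM in a library.

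No member passed the threshold for a difference between sST2-KO and WT. The edgeR quasi-likelihood test with Benjamini-Hochberg adjustment over all 16377 genes tested called 0 of 50 members, and 0% of all genes, at an adjusted p under 0.05, and the lowest adjusted p of a member was 0.339. The members nonetheless lay more often on the lower side in sST2-KO. Log2 changes were negative for 32 of 50 members, against 46.5% of all tested genes. At an unadjusted p under 0.05 there were 12 members lower in sST2-KO, against 5.95% of all tested genes, and 1 higher, against 5.08%. Without WT replicate 2, or without sST2-KO replicate 3, the 12 became 6. The 1 became 0 without WT replicate 3 and 2 without sST2-KO replicate 2. Every sST2-KO library lay below every WT library for 15 of 50 members, against 10% of all tested genes, and above for 1, against 9.09%. The 15 became 23 without sST2-KO replicate 1, against 15.8% of all tested genes in that setting. The 1 became 3 without WT replicate 2 (against 14.5%), 6 without sST2-KO replicate 2 (against 18.7%) and 2 without sST2-KO replicate 3 (against 14%). The members were listed with results of these data known, and they vary together, so these counts are descriptions.

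Whether the families differ from each other was not tested. The median log2 change was -0.75 over the 4 TIMPs, -0.46 over the 16 tested MMPs, -0.33 over the 16 tested ADAMTSs and 0.052 over the 14 tested ADAMs, beside 0.042 over all tested genes. Without WT replicate 2 the TIMP median was -0.45. Negative changes numbered 3 of 4 TIMPs, 12 of 16 MMPs, 10 of 16 ADAMTSs and 7 of 14 ADAMs. DESeq2, run on the same genes, called 3 members lower (Timp1, Mmp12 and Mmp19; 1.6% of all genes with an adjusted p) and 1 higher (Mmp15; 0.406%). limma-voom called 0 members and 0% of all tested genes, and with sample quality weights it called 1 member, Timp1, and 43 of 16377 genes (0.263%).

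**Figure D1:**
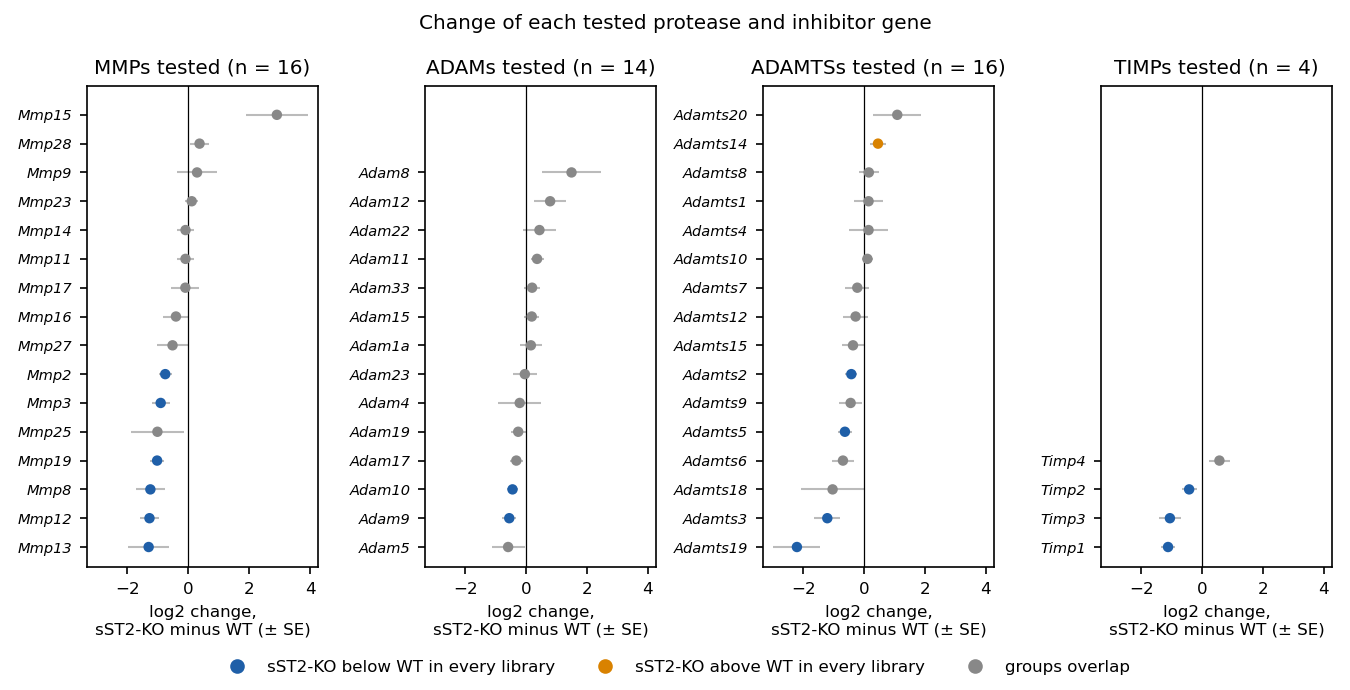
Log2 change of sST2-KO against WT for each of the 50 tested members (points) with its standard error (horizontal bars), in 4 panels by family. Blue marks the 15 members with every sST2-KO library below every WT library, orange the 1 member with every sST2-KO library above, and grey the members whose groups overlap; most blue points are MMPs, ADAMTSs and TIMPs.

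By group mean, a pair of inhibitors were the most abundant members per kilobase. Timp2, which both inhibits MMPs and helps to activate pro-MMP2, had 270 ± 56.4 CPM per kilobase in WT and 201 ± 7.81 in sST2-KO (SD, n = 3 each), the highest level of any member in both groups. Timp1, an inhibitor induced in inflamed and scarring tissue, came next in both groups with 211 ± 55.6 and 96.8 ± 8.40 CPM per kilobase. In WT the intervals of 1 SD of these genes overlap, so their order there is within the spread between libraries. The protease gene Mmp3 came after them in both groups, with 156 ± 30.9 and 83.0 ± 28.8 CPM per kilobase. Its intervals of 1 SD overlap those of Timp1 in both groups, so that order is also within the spread.

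Timp1 (chromosome X, 20736405 to 20740974, mm39) had the lowest unadjusted p of all members. Its level was 234, 135 and 192 CPM across the WT libraries and 79.3, 94.0 and 84.4 across the sST2-KO libraries. The sST2-KO libraries are close to each other and all lie below the lowest WT library, WT replicate 2. The log2 change was -1.12 (SE 0.23), with an edgeR adjusted p of 0.339, a DESeq2 adjusted p of 0.00441 and an adjusted p of 0.0425 in limma-voom with quality weights. It stayed negative under all 17 alternative analyses, from -1.33 to -0.92, with adjusted p-values of 0.00441 to 0.690.

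Timp3, the matrix-bound inhibitor, had 405, 851 and 424 CPM across the WT libraries and 205, 305 and 296 across the sST2-KO libraries. WT replicate 2 held about as much as both other WT libraries combined, and the groups did not overlap. The log2 change was -1.06 (SE 0.36, edgeR adjusted p = 0.431), and without WT replicate 2 it was -0.65. Timp2 had 922, 1306 and 928 CPM across the WT libraries and 788, 748 and 808 across the sST2-KO libraries. WT replicate 2 was again the highest, the groups did not overlap, and the log2 change was -0.43 (SE 0.25, edgeR adjusted p = 0.524).

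Timp4, the inhibitor with the most restricted tissue range, was the exception among the 4. It had 51.7, 52.5 and 52.7 CPM across the WT libraries and 59.9, 47.0 and 126 across the sST2-KO libraries. Only sST2-KO replicate 3 stood apart; the log2 change of 0.57 (SE 0.36, edgeR adjusted p = 0.550) was 0.031 without that library. The sum of 6 adipocyte markers was also highest there, at 9225 CPM against 1100 to 6368 CPM elsewhere, and is mostly Fabp4 at 6255 CPM. Adipoq, Cidec, Ucp1 and Fabp4 were highest in sST2-KO replicate 3, while Plin1 and Lep were not. Plin1 had 510 CPM there against 579 CPM in sST2-KO replicate 1, and Lep 5.39 CPM against 35.9 CPM in WT replicate 1. The part of adipocyte markers in the Timp4 value was not tested. The gene lies within Syn2 on the opposite strand, whose counts came to 7.94% of those of Timp4, and the strand setting of the counting is not given in the sources used here.

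Among the MMPs, those with an unadjusted p under 0.05 were Mmp2, Mmp3, Mmp8, Mmp12 and Mmp19, all lower in sST2-KO, and Mmp15, which was higher. Mmp3, stromelysin 1, led the family with 156 ± 30.9 CPM per kilobase in WT and 83.0 ± 28.8 in sST2-KO (SD, n = 3 each). Mmp2 followed in WT at 53.2 ± 6.73, then Mmp12 at 42.9 ± 4.84 and Mmp23 at 36.4 ± 5.46 CPM per kilobase. In sST2-KO the order after Mmp3 was Mmp23 at 39.4 ± 8.53, Mmp2 at 31.5 ± 6.41, Mmp14 at 18.5 ± 6.26 and Mmp12 at 17.7 ± 7.42, where Mmp2 and Mmp14 lie further apart than their SDs and the other neighbours after Mmp3 do not.

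Mmp12, the macrophage elastase, had 319, 341 and 272 CPM across the WT libraries and 186, 80.2 and 119 across the sST2-KO libraries. The groups were well apart, with means of 311 ± 35.0 and 128 ± 53.7 CPM (SD, n = 3 each). The edgeR test gave an adjusted p of 0.386 and DESeq2 an adjusted p of 0.0166, and over all alternatives the log2 change ran from -1.64 to -0.96. Mmp19, an MMP of myeloid and stromal cells, had 47.4, 46.7 and 50.5 CPM across the WT libraries and 31.6, 19.3 and 20.1 across the sST2-KO libraries. Its WT libraries differ little from each other and all exceed the sST2-KO libraries; edgeR gave an adjusted p of 0.339 and DESeq2 0.0172. Tmem198b, which overlaps Mmp19 on the opposite strand, had 42.1% as many counts.

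Mmp2, the constitutive gelatinase of fibroblasts and smooth muscle, had 194, 153 and 191 CPM across the WT libraries and 117, 120 and 81.2 across the sST2-KO libraries. The groups did not overlap, and edgeR gave an adjusted p of 0.416. Mmp3, which cleaves proteoglycans and activates other pro-MMPs, had 245, 345 and 252 CPM across the WT libraries and 135, 207 and 106 across the sST2-KO libraries. Here too the highest sST2-KO library, replicate 2, was below the lowest WT library, and the log2 change was -0.91 (SE 0.30, edgeR adjusted p = 0.431). Mmp8, the neutrophil collagenase, had 3.69, 6.30 and 7.39 CPM across the WT libraries and 3.52, 1.34 and 2.46 across the sST2-KO libraries. The separation of its groups rests on a gap of less than 0.2 CPM between WT replicate 1 and sST2-KO replicate 1, and edgeR gave an adjusted p of 0.443.

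Several other MMPs overlapped between groups. Mmp14, the membrane-type MMP that activates pro-MMP2, had 121, 105 and 125 CPM across the WT libraries and 139, 124 and 67.9 across the sST2-KO libraries, so that 1 sST2-KO library lay above all WT libraries and 1 below. Mmp23 had 71.1, 95.9 and 88.7 CPM across the WT libraries and 86.8, 75.4 and 114 across the sST2-KO libraries, also with overlap. Their log2 changes were -0.091 (SE 0.28) and 0.11 (SE 0.21), with edgeR adjusted p-values of 0.905 and 0.836. Mmp9, the inducible gelatinase of neutrophils and macrophages, was scarce: it ranged from 3.59 to 9.004 CPM in WT and from 2.93 to 15.1 CPM in sST2-KO, with an edgeR adjusted p of 0.863. Mmp13, the main interstitial collagenase of mice, was at 7.99 to 12.6 CPM in WT and 0.931 to 7.67 CPM in sST2-KO without overlap, with an edgeR adjusted p of 0.496. The 6 chondrocyte markers summed to 47.2 to 149 CPM in WT and 12.2 to 27.3 CPM in sST2-KO. Most of the WT sum is Col2a1, at 29.6 to 126 CPM in WT and 2.59 to 12.4 CPM in sST2-KO. Of the 4 chondrocyte markers tested, 3 had negative log2 changes and Cnmd a positive one, 0.61. Matn1, not tested, had counts only in sST2-KO libraries. The part of the chondrocyte markers in the Mmp13 value was not tested. Per 1000 CPM of the chondrocyte markers, Mmp13 had 84.6 to 259 CPM in WT and 76.5 to 567 CPM in sST2-KO, with overlap. Per 1000 CPM of 9 macrophage markers it had 3.15 to 5.24 and 0.569 to 3.14 CPM. The lack of overlap there rests on 3.15 for WT replicate 3 against 3.14 for sST2-KO replicate 1. That sum is mostly the macrophage gene Lyz2. The other 8 markers summed to 650 CPM for WT replicate 3 and 389 CPM for sST2-KO replicate 1. Mmp13 was at 7.99 and 7.67 CPM in these libraries, so relative to the 8 markers the groups overlap. Apart from Mmp15, the other 6 tested MMPs (Mmp11, Mmp16, Mmp17, Mmp25, Mmp27 and Mmp28) overlapped between groups, with edgeR adjusted p-values of 0.640 to 0.940.

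**Figure D2:**
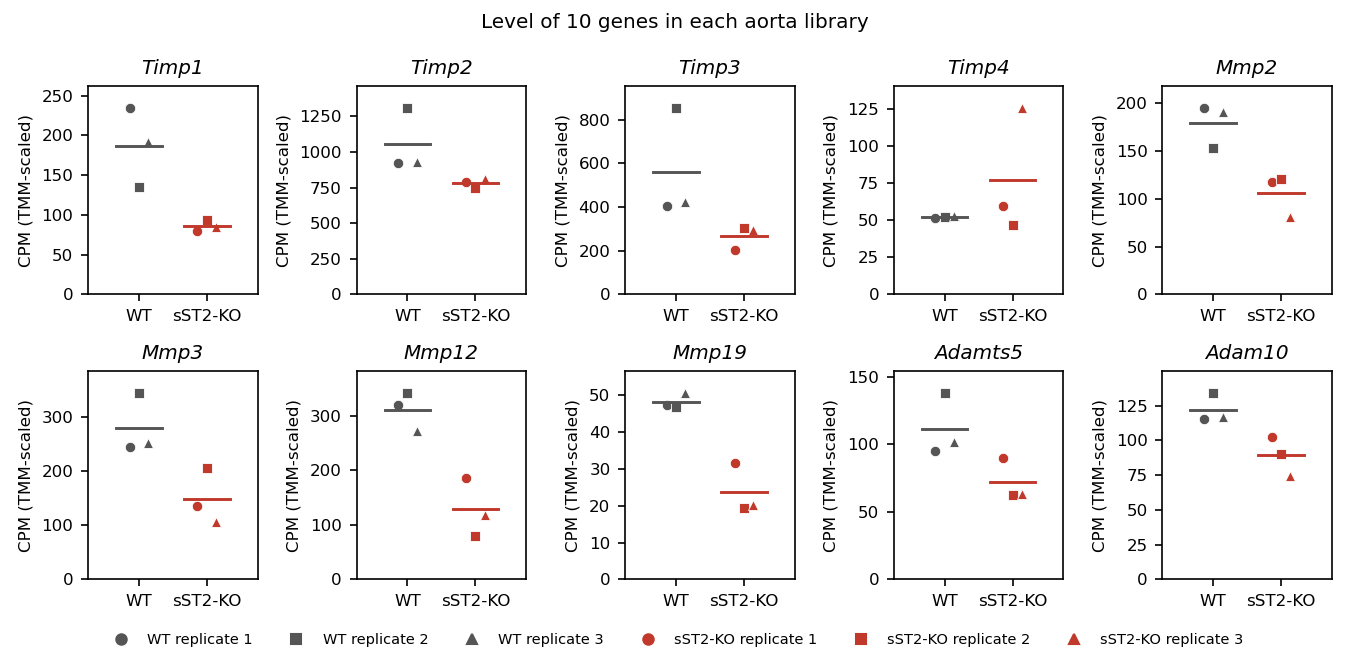
TMM-scaled CPM of 10 members in each library (points; grey WT, red sST2-KO; the marker shape gives the replicate) with the group mean (line), on linear axes from 0. For Timp1, Timp2, Timp3, Mmp2, Mmp3, Mmp12, Mmp19, Adamts5 and Adam10 every red point lies below every grey point, while Timp4 overlaps, with sST2-KO replicate 3 at 126 CPM.

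A cluster of MMP genes on chromosome 9 held most of the secreted MMPs named above. The 10 genes Mmp13, Mmp12, Mmp1b, Mmp3, Mmp1a, Mmp10, Mmp8, Mmp27, Mmp20 and Mmp7 lie between positions 7272514 and 7699586 (mm39), within 427 kb. Only 5 of them were expressed enough to be tested, and all 5 had negative log2 changes. Mmp10, the paralogue next to Mmp1a, reached at most 3 counts in a library. Mmp12 overlaps the unexpressed Mmp1b on the opposite strand.

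Promoters of this cluster are known for a binding site of AP-1, the Fos and Jun dimer, close to a TATA box, so these letters were looked for in RefSeq promoter windows (GRCm38.p6, 250 bases before to 50 after the annotated start; 50 of 80 members had a window). The AP-1 letters searched were TGANTCA, which reads the same on both strands, and the TATA letters were TATAAA on either strand; a gene counts where any of its windows holds them. AP-1 letters were in 8 of the 10 cluster genes, in none of the 4 TIMPs, in none of 10 ADAMTSs and in 5 of 18 ADAMs, against 8.97% of 27025 genes with a window. TATA letters were in 9 of the 10 cluster genes against 15.7%. Mmp8 and Mmp27 were the cluster genes without AP-1 letters. Mmp12 counts through its downstream window alone and Mmp7 through its upstream window alone, as the other window of each gene holds neither AP-1 nor TATA letters. A match describes the sequence and is not evidence of binding.

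The 120 bases before the start are shown for the cluster genes that differ most in level, from the abundant Mmp3 and Mmp12 through Mmp13 to Mmp10 and Mmp1a at or near 0 counts, since all 5 carry AP-1 letters within 80 bases of an annotated start. Capitals mark the AP-1 and TATA letters, and all 5 genes are on the plus strand of chromosome 9 in GRCm38.p6. The windows are chr9:7445702-7445821 for Mmp3, chr9:7347254-7347373 for the downstream of 2 annotated Mmp12 starts, chr9:7272394-7272513 for Mmp13, chr9:7502222-7502341 for Mmp10 and chr9:7464021-7464140 for Mmp1a.
Mmp3: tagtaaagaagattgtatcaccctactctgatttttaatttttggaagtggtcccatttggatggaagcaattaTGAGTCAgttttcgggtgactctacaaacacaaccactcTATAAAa
Mmp12: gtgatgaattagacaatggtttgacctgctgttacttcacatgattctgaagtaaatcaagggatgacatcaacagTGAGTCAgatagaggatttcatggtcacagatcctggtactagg
Mmp13: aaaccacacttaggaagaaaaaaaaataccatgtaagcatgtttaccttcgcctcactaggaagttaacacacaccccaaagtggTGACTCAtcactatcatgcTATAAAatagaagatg
Mmp10: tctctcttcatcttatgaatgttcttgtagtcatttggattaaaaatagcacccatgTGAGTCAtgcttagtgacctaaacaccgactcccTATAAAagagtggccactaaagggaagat
Mmp1a: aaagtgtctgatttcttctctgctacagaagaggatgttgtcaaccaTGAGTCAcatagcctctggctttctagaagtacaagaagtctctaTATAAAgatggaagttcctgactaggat

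The AP-1 letters begin 46 bases before the start in Mmp3, 44 in Mmp12, 35 in Mmp13, 63 in Mmp10 and 73 in Mmp1a. In the shown window of Mmp12 no TATA letters appear; they begin 5 bases into the transcript, outside the stretch shown. Over the whole cluster, the 4 genes without counts (Mmp1a, Mmp1b, Mmp7 and Mmp20) all hold the AP-1 letters, and the 2 without the letters, Mmp8 and Mmp27, have counts.

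The summed levels of the MMPs and of the TIMPs were lower in sST2-KO, while those of the ADAMs and ADAMTSs overlapped between groups. The MMP sum was 325, 383 and 334 CPM per kilobase across the WT libraries and 237, 257 and 184 across the sST2-KO libraries. The TIMP sum was 558, 601 and 515 CPM per kilobase across the WT libraries and 327, 343 and 360 across the sST2-KO libraries. Neither sum overlapped between groups. Their ratio was 0.582, 0.638 and 0.647 across the WT libraries and 0.726, 0.749 and 0.510 across the sST2-KO libraries, so 2 sST2-KO libraries lay above and 1 below all WT libraries.

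The ratio of summed MMP to summed TIMP transcripts thus had group means of 0.623 ± 0.0351 in WT and 0.662 ± 0.132 in sST2-KO (SD, n = 3 each), a difference within the spread of the sST2-KO libraries. The difference in means was 0.0392, and 0.35 when Mmp3 and Timp2 were left out of the sums. Without these genes the ratio of every sST2-KO library lay above that of every WT library, so the overlap depends on them. With Mmp3 alone left out, the ratio was 0.345 ± 0.0284 in WT and 0.419 ± 0.0755 in sST2-KO (SD, n = 3 each), with overlap. Mmp3 alone made up 41.8 to 49.9% of the MMP sum in WT and 31.6 to 44.7% in sST2-KO. ADAM sums were 123 to 159 CPM per kilobase in WT and 110 to 202 in sST2-KO, and ADAMTS sums 81.2 to 119 and 79.6 to 99.0.

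**Figure D3:**
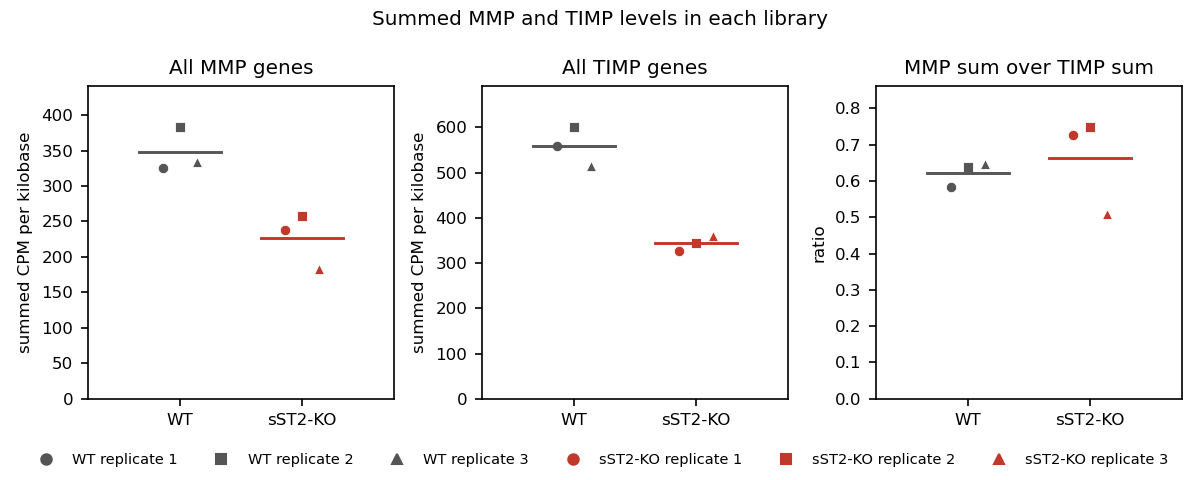
Summed CPM per kilobase of all 23 MMP genes and of all 4 TIMP genes, and the ratio of these sums, in each library (points; grey WT, red sST2-KO; lines are group means). Both sums separate the groups, while the ratio overlaps, with sST2-KO replicate 3 at 0.510 below and the other sST2-KO libraries above the WT range of 0.582 to 0.647.

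The sheddase genes Adam10 and Adam9 were the tested ADAMs with an unadjusted p under 0.05. Adam10, which sheds Notch receptors and CX3CL1, had 115, 134 and 117 CPM across the WT libraries and 103, 90.5 and 74.6 across the sST2-KO libraries. Adam9 had 157, 242 and 154 CPM across the WT libraries and 122, 138 and 115 across the sST2-KO libraries. Neither overlapped between groups, and their log2 changes were -0.45 (SE 0.18) and -0.56 (SE 0.23), with edgeR adjusted p-values of 0.443 and 0.451.

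Adam17, the TNF-converting enzyme, overlapped, at 56.2 to 78.3 CPM in WT and 42.8 to 64.1 CPM in sST2-KO (edgeR adjusted p = 0.556). Iah1, which overlaps it on the opposite strand, had 59.8% as many counts. Adam15, an ADAM of endothelium and smooth muscle, had 128, 129 and 129 CPM across the WT libraries and 167, 97.1 and 173 across the sST2-KO libraries. The tight WT values sit between those of the sST2-KO libraries, and edgeR gave an adjusted p of 0.766. Adam12, an ADAM of activated mesenchymal cells, was at 11.5 to 13.6 CPM in WT and at 6.93 to 34.3 CPM in sST2-KO (edgeR adjusted p = 0.563).

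ADAMTS genes with an unadjusted p under 0.05 were Adamts5, Adamts3 and Adamts19. Adamts5, an aggrecanase that also cleaves versican, had 95.3, 138 and 102 CPM across the WT libraries and 89.9, 62.1 and 63.4 across the sST2-KO libraries. The groups did not overlap, though sST2-KO replicate 1 came within 6 CPM of WT replicate 1, and the log2 change was -0.63 (SE 0.23, edgeR adjusted p = 0.435). Adamts3, a procollagen N-propeptidase, was low, at 2.54, 2.47 and 2.15 CPM across the WT libraries and 1.31, 1.09 and 0.665 across the sST2-KO libraries, again without overlap (edgeR adjusted p = 0.435). Adamts19 was lower still, with 30, 32 and 17 counts across the WT libraries and 11, 8 and 1 across the sST2-KO libraries (edgeR adjusted p = 0.435).

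The most abundant ADAMTSs per kilobase were Adamts1, Adamts10, Adamts2 and Adamts5. Adamts1, which lies beside Adamts5 on chromosome 16 and also cleaves versican, had 93.5, 199 and 113 CPM across the WT libraries and 65.6, 171 and 211 across the sST2-KO libraries. It did not follow its neighbour: the groups overlapped widely and the log2 change was 0.14 (SE 0.47, edgeR adjusted p = 0.912), a sign that changed with the library left out. Adamts10, which binds fibrillin, had 169, 186 and 166 CPM across the WT libraries and 200, 158 and 203 across the sST2-KO libraries, with overlap (edgeR adjusted p = 0.822). Adamts2, the main procollagen I N-propeptidase, had 163, 225 and 186 CPM across the WT libraries and 161, 143 and 123 across the sST2-KO libraries, where the gap between groups was under 2 CPM (edgeR adjusted p = 0.476). Adamts14, its paralogue, was the only tested member with every sST2-KO library above WT: 5.02, 5.42 and 5.07 CPM across the WT libraries and 6.65, 6.93 and 7.65 across the sST2-KO libraries (edgeR adjusted p = 0.524).

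Adamts4, the other main aggrecanase gene, ranged from 1.53 to 8.52 CPM with overlapping groups. Adamts13, which cleaves von Willebrand factor and is made in liver, was not tested; its highest count, 17, was reached by WT replicate 3 and by sST2-KO replicate 2.

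Adam8, Adam28 and Mmp15 were the members whose log2 of CPM plus 1 in 1 library lay more than 2 above every other library, in each case sST2-KO replicate 2, the library with airway transcripts. Adam8, an ADAM of leukocytes and epithelium, had 463 CPM there, 41.3 and 32.3 CPM in sST2-KO replicates 1 and 3, and 68.3, 63.2 and 59.9 CPM across the WT libraries. Its log2 change was 1.49 (SE 0.97) with that library and -0.79 (SE 0.19) without it, with edgeR adjusted p-values of 0.558 and 0.293. Adam28 had 826 counts there, 5, 0 and 5 across the WT libraries and 0 in both other sST2-KO libraries.

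Mmp15, a membrane-type MMP of epithelia, was the 1 member with a positive change at an unadjusted p under 0.05. It had 9.65, 2.87 and 6.50 CPM across the WT libraries and 26.8, 111 and 5.92 across the sST2-KO libraries, so the groups overlapped. The log2 change was 2.91 (SE 1.01; edgeR adjusted p = 0.435, DESeq2 adjusted p = 0.0336), and without sST2-KO replicate 2 it was 1.35 (SE 0.69, edgeR adjusted p = 0.449). Adamts20, named after its values were seen, had 4.95 CPM in that library and at most 1.44 CPM elsewhere. The 9 airway epithelium markers summed to 37722 CPM in sST2-KO replicate 2 and to 2.87 to 35.2 CPM elsewhere, none of them at 0 in all libraries; their part in these values was not tested.

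**Figure D4:**
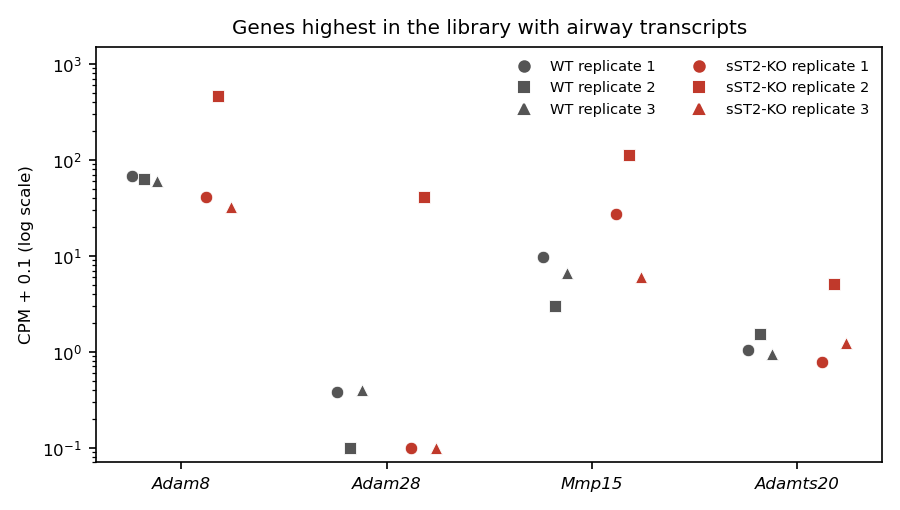
CPM plus 0.1 on a log axis for Adam8, Adam28, Mmp15 and Adamts20 in each library (grey WT, red sST2-KO; the marker shape gives the replicate). The red square, sST2-KO replicate 2, is the highest point for all 4 genes, at 463, 40.9, 111 and 4.95 CPM before 0.1 is added.

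Markers of macrophages and fibroblasts were mostly lower in sST2-KO. Of 9 macrophage markers, 8 had negative log2 changes, 7 of them without overlap between groups, and none was at 0. Over all tested genes, 46.5% had negative changes and 10% lay below WT without overlap. Their sum, 2403 to 2734 CPM in WT and 1638 to 3462 CPM in sST2-KO, is mostly Lyz2, which reached 3152 CPM in the library with airway transcripts. Without Lyz2, a choice made after its values were seen, the sum was 691, 559 and 650 CPM across the WT libraries and 389, 310 and 265 across the sST2-KO libraries. Per 1000 CPM of these 8 markers, Mmp12 had 462, 609 and 419 CPM across the WT libraries and 478, 258 and 448 across the sST2-KO libraries. Mmp19 had 68.6, 83.6 and 77.7 CPM in WT and 81.3, 62.2 and 75.9 CPM in sST2-KO on the same scale. On that scale both genes overlapped between groups, whereas per 1000 CPM of all 9 markers neither did: Mmp12 then had 107 to 142 CPM in WT and 23.2 to 76.3 CPM in sST2-KO.

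All 7 fibroblast markers had negative log2 changes, against 46.5% of all tested genes, and none was at 0. Their sums were 6887 to 8901 CPM in WT and 3207 to 4902 CPM in sST2-KO. Other lists went the other way: all 7 endothelium markers and 6 of 7 smooth muscle markers had positive changes, each with overlapping groups. Per 1000 CPM of the fibroblast markers, Mmp2 had 17.2 to 27.7 CPM in WT and 23.9 to 26.7 CPM in sST2-KO. On that scale Mmp3 had 34.9 to 38.7 and 27.5 to 46.0 CPM, and Timp1 had 15.2 to 33.4 and 16.2 to 26.3 CPM. These ranges overlap, and the part of cell content in the lower levels was not tested. Per 1000 CPM of the 9 macrophage markers, Timp1 had 56.4 to 85.6 CPM in WT and 27.2 to 51.5 CPM in sST2-KO, without overlap. That sum is mostly Lyz2, and relative to the 8 markers without Lyz2 the groups overlap. Timp1 had 135 CPM beside 559 CPM of those 8 markers in WT replicate 2. In sST2-KO replicate 3 it had 84.4 CPM beside 265 CPM. Adamts2, whose level was lower in sST2-KO, lay above WT without overlap per 1000 CPM of fibroblast markers. It had 23.2 to 27.0 CPM in WT and 31.8 to 38.3 CPM in sST2-KO on the fibroblast scale. The 9 neutrophil markers, summing to 29.6 to 166 CPM in WT and 13.7 to 71.2 CPM in sST2-KO, overlapped between groups, with 1 marker at 0 in every sST2-KO library. Per 1000 CPM of them, Mmp9 had 54.2 to 121 CPM in WT and 212 to 248 CPM in sST2-KO, without overlap, and Mmp8 had 40.0 to 213 and 49.5 to 180 CPM, with overlap. Per 1000 CPM of smooth muscle markers, Timp3 had 91.6 to 134 CPM in WT and 28.2 to 53.8 CPM in sST2-KO, without overlap, whereas per 1000 CPM of fibroblast markers it had 57.8 to 95.6 and 41.7 to 92.3 CPM, with overlap.

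**Figure D5:**
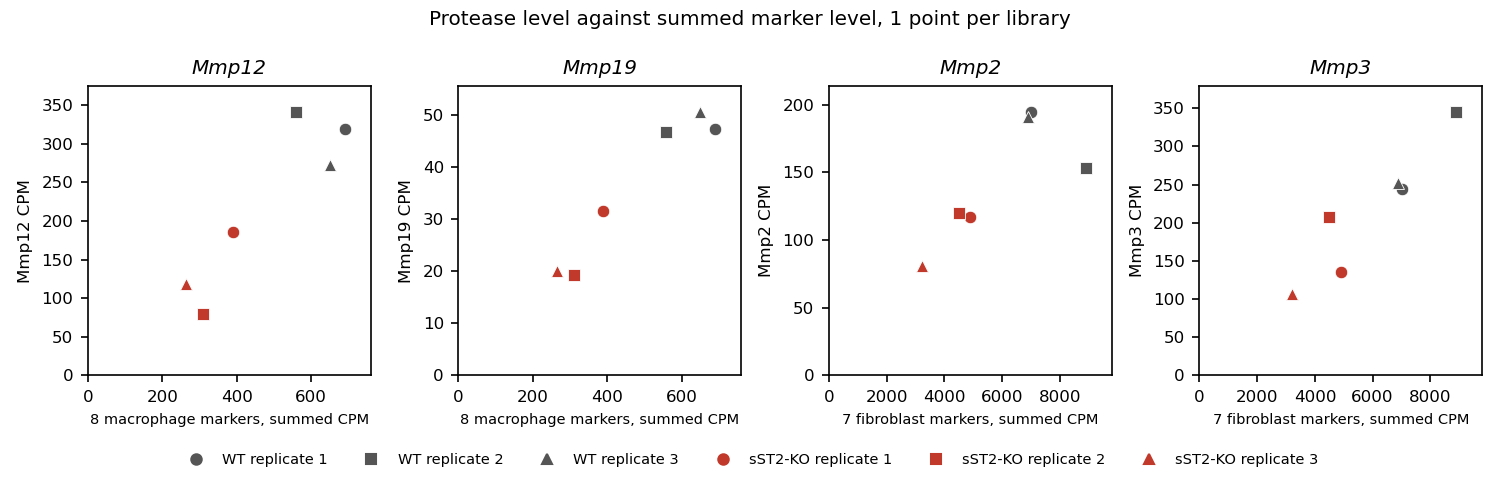
CPM of Mmp12 and Mmp19 against the summed CPM of 8 macrophage markers (Lyz2 left out), and of Mmp2 and Mmp3 against that of 7 fibroblast markers, 1 point per library (grey WT, red sST2-KO), on linear axes from 0. The sST2-KO libraries are lower on both axes in each panel.

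Libraries also differed within groups. WT replicate 2 was the highest of all 6 libraries for 21 of 50 members, against 25.7% of all tested genes, and sST2-KO replicate 3 the lowest for 20, against 21.5%. The median coefficient of variation over the 50 members was 20.7% in WT and 34.5% in sST2-KO. The tightest members in WT were Adam15 and Timp4.

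Partner genes were grouped by their link to these proteases, and no list held a gene called by edgeR. For all the lists below, the shares over all tested genes were 46.5% negative, 10% below WT without overlap and 9.09% above. In the MMP activation and plasmin list, 6 of 10 tested genes had negative changes, with a median log2 change of -0.027. Serpine2, protease nexin 1, had 368, 668 and 394 CPM across the WT libraries and 230, 194 and 272 across the sST2-KO libraries without overlap (edgeR adjusted p = 0.416, DESeq2 adjusted p = 0.0435). The proprotein convertase gene Pcsk7 was at 32.5 to 34.8 CPM in WT and 37.3 to 43.6 CPM in sST2-KO (edgeR adjusted p = 0.488).

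Of the other inhibitors and clearance receptors, 5 of 6 tested genes had negative changes (median -0.60). Thbs2, which mediates uptake of MMP2, had 86.6, 148 and 99.5 CPM across the WT libraries and 78.6, 62.8 and 57.1 across the sST2-KO libraries (edgeR adjusted p = 0.431). The broad protease inhibitor A2m had 105 CPM in WT replicate 3, the library with liver transcripts, and at most 2.39 CPM elsewhere. Of the ADAMTS-like genes, 5 of 7 had negative changes (median -0.20). Adamtsl3 had 57.7, 96.5 and 56.8 CPM across the WT libraries and 32.3, 38.3 and 40.1 across the sST2-KO libraries, and Adamtsl4 was at 43.2 to 52.6 and 31.3 to 40.5 CPM, both without overlap (edgeR adjusted p = 0.386 and 0.451). Of the astacins and other secreted metalloproteinase genes, 5 of 6 had negative changes (median -0.39). Pcolce, the enhancer of procollagen C-proteinase, was at 231 to 286 CPM in WT and 148 to 215 CPM in sST2-KO, and Pappa was at 6.14 to 9.81 and 1.93 to 5.28 CPM (edgeR adjusted p = 0.469 and 0.472).

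The iRhoms and tetraspanins that guide ADAM17 and ADAM10 had 2 of 8 negative changes (median 0.14). Tspan15, an ADAM10 partner, had 16.9, 8.45 and 15.9 CPM across the WT libraries and 32.6, 31.8 and 20.4 across the sST2-KO libraries (edgeR adjusted p = 0.431), and Tspan5 was at 45.3 to 61.1 and 33.8 to 47.9 CPM with overlap. Of the shedding substrates, 18 of 23 had negative changes (median -0.20). Cxcl16, a chemokine shed by ADAM10, had 91.3, 80.9 and 73.6 CPM across the WT libraries and 47.3, 41.0 and 29.5 across the sST2-KO libraries (edgeR adjusted p = 0.339, DESeq2 adjusted p = 0.00529). The adhesion molecule gene Vcam1 was at 403 to 522 CPM in WT and 220 to 279 CPM in sST2-KO (edgeR adjusted p = 0.386, DESeq2 adjusted p = 0.0110).

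The matrix substrates had 8 of 14 negative changes (median -0.58), of which 6 had an unadjusted p under 0.05, beside 46.5% negative and 5.95% lower at that p over all tested genes. Col3a1, the fibrillar collagen, had 4140, 3653 and 3940 CPM across the WT libraries and 2230, 1641 and 1414 across the sST2-KO libraries. Versican, Vcan, the substrate of several ADAMTSs, had 142, 197 and 139 CPM across the WT libraries and 74.0, 72.8 and 123 across the sST2-KO libraries. Neither overlapped between groups. Adjusted p-values were 0.386 and 0.431 in edgeR, and 0.000432 and 0.163 in DESeq2.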

How the data were processed

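For 6 aortas, 1 library per mouse, the authors deposited a table of raw counts for each Ensembl gene, with symbols, biotypes, positions and gene lengths. The build is mm39, per the submitters' processing notes. No source used here gives the aligner, the counter or its strand setting, so reads of overlapping genes cannot be told apart. Per the labels' protocols, poly-A RNA was captured on oligo-dT beads and primed with random hexamers. Samples were grouped by title, and p-values measure the spread between these libraries.

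Counts were tested in edgeR 4.0.16 (R 4.3.3) with filterByExpr (minimum count 10, minimum total 15), TMM scaling, glmQLFit and glmQLFTest, with Benjamini-Hochberg adjustment over all 16377 genes tested and a threshold of 0.05. SE is the size of the log2 change divided by the square root of F. Alternatives were DESeq2 1.42.0, limma-voom (limma 3.58.1) with and without quality weights, other scalings and filters, a replicate block and fits without single libraries. DESeq2 gave no adjusted p to 1862 genes, 4 of them members. The scripts were tested on simulated data.

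The members, the gene lists and the pairs of member and marker list were chosen with earlier results of these data known. Values are given for all TIMPs, for members with an unadjusted p under 0.05, for the 4 of each family highest per kilobase, for members whose log2 of CPM plus 1 in 1 library exceeded every other by more than 2, and for up to 2 partner genes per list with the lowest p. Mmp9, Mmp13, Mmp14, Adam12, Adam17, Adamts4, Adamts13, Adamts14 and Adamts20 fall outside this rule and were named after their values were seen. Promoter sequences are from RefSeq, GRCm38.p6. Figures were drawn with matplotlib 3.10.9.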

Additional observations from a re-analysis of the deposited data

How the results depend on the processing

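With 3 libraries a group, calls depend on the tool: edgeR called 0 members, DESeq2 called 4, and limma-voom with quality weights called 1. The cause of these differences was not tested. Members higher at an unadjusted p under 0.05 numbered 0 with limma-voom, 5 with quality weights and 2 with no low-count filter. With quality weights the median log2 change was -0.080 for ADAMTSs and -0.55 for TIMPs, and the changes of Adam8 and Adamts1 turned to -0.26 and -0.067. The ADAM median was -0.20 with no filter. Left out of the sums, Mmp3 and Timp2 moved the MMP to TIMP difference from 0.0392 to 0.35.

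With WT replicate 3 and sST2-KO replicate 2 left out together, the ADAM median was -0.28 and the TIMP median -0.83, Adam8 was at -0.84, Adamts1 at -0.074 and Mmp23 at 0.27. In this setting, chosen for the overlap counts after seeing the data, 20 members lay below WT without overlap and 7 above, against 21.1% and 22.7% of all genes.

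Leaving out 1 library at a time, members called numbered 0, those lower at an unadjusted p under 0.05 numbered 6 to 10 and those higher 0 to 2. Members below without overlap numbered 15 to 23, against 13.1 to 17.3% of all genes, and above 1 to 6, against 12.8 to 18.7%. Medians ran from -0.72 to -0.34 for MMPs, -0.082 to 0.065 for ADAMs, -0.52 to -0.18 for ADAMTSs and -0.81 to -0.45 for TIMPs, and the MMP to TIMP difference from -0.0044 to 0.115. Single changes ran from -0.79 to 1.98 for Adam8, -0.195 to 0.51 for Adamts1 and -0.072 to 0.24 for Mmp23.

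Deviations from the group means correlated at 0.145, 0.046 and -0.087 between same-numbered libraries, and at -0.119 to 0.045 between the others. Such correlations cannot decide whether the numbers pair the mice, and the labels do not say. With a replicate block, edgeR called 0 members, with 12 lower and 0 higher at an unadjusted p under 0.05.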
